A study of Homo sapiens with 16 samples.

Results

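Ultraviolet C light (UV) changed the transcriptome of U2OS cells, a human sarcoma line, that carried a stable short hairpin RNA against PIP4K2A. Transcripts of stress-induced genes such as PTGS2, FOS and GDF15 were higher, and transcripts of the replication-dependent histones, of E2F6 and of many signalling feedback genes were lower. The 4 libraries concerned were taken by their titles from a series of 16: 2 from PIP4K2A knockdown cells collected 6 h after UV-C at 30 J/m2, and 2 from untreated PIP4K2A knockdown cells. The other 12 libraries came from cells with a hairpin against PIP4K2B, with both hairpins, or with the empty pLKO vector, each with UV and untreated, in 2 libraries per group. They served here to estimate the spread between replicates and to test where the UV response differed. Both groups of PIP4K2A knockdown cells carried the same hairpin and grew in puromycin, so the comparison is between irradiated and untreated cells of 1 line. The labels name 1 hairpin for PIP4K2A, no non-targeting hairpin, and do not say whether untreated cells went through a mock exposure without medium. Nothing in them says whether replicates were separate cultures, so the p-values reflect differences between these libraries that may be only technical. RNA was total RNA depleted of ribosomal RNA.

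PIP4K2A encodes a lipid kinase of the type II family, which phosphorylates phosphatidylinositol 5-phosphate. UV-C makes bulky lesions between neighbouring pyrimidines that stop RNA polymerase II and DNA polymerases, so transcription of long or unstable messages drops while stress kinases induce immediate early genes, and cells in S phase hold back replication. Messages of replication-dependent histones are made in step with DNA synthesis and are degraded when it stops. In bulk RNA, fewer cells of a kind and less RNA per cell cannot be told apart.

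The targeted gene was read first. PIP4K2A (ENSG00000150867; GRCh38 chromosome 10, 22534849 to 22714555, minus strand) had 7.48 and 7.63 CPM (counts scaled to a common library total) in the UV libraries, against 18.2 and 15.5 CPM in the untreated libraries. The log2 change was -0.90 (SE 0.10; adjusted p = 5.17e-05, edgeR's quasi-likelihood test with Benjamini-Hochberg adjustment over all genes tested), and the groups did not overlap. In the same model the log2 change of PIP4K2A was -1.01 in double knockdown cells, -0.11 in PIP4K2B knockdown cells and 0.03 in empty vector cells. The difference between the PIP4K2A knockdown and empty vector responses, -0.93 (SE 0.15), did not pass the test (adjusted p = 0.138). PIP4K2B had 65.1 and 76.2 CPM with UV, against 96.9 and 98.3 CPM untreated, and a log2 change of -0.21 (SE 0.10) that missed the threshold (adjusted p = 0.122, edgeR). PIP4K2C had 70.6 and 87.2 CPM with UV, against 82.8 and 77.2 CPM untreated, and its log2 change of 0.23 (adjusted p = 0.0839, edgeR) turned to -0.56 when libraries were scaled to ribosomal protein genes.

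The UV libraries held 33.6 and 36.3 M expected counts, against 31.9 and 28 M in the untreated libraries. Mitochondrial genes took 3.27 and 2.53% of counts with UV, against 3.06 and 2.81% untreated. Fold changes include a scaling factor per library (TMM) of 0.947 and 0.954 in the UV libraries, against 1.15 and 1.12 in the untreated ones, so a ratio of the CPM values printed here lies below the fitted fold change. Empty vector untreated replicate 1, with 1.28 M counts, stood apart from the rest and was left out, and the untreated empty vector group was then 1 library assumed to vary like the others.

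The UV libraries of the PIP4K2A knockdown differed from each other more than any other complete pair of replicates in the series. Over 11353 genes with a mean of at least 5 CPM, the SD of log2 replicate 2 minus replicate 1 was 0.447, and 248 genes (2.18%) differed by more than 2-fold. With the same minimum applied within each pair, the SD was 0.241 in the untreated pair of the same line. It was 0.131 in the UV pair of the PIP4K2B knockdown, 0.103 in that of the double knockdown and 0.192 in that of empty vector cells. The difference moved with base composition, in a look taken after the values were seen. Of 1888 genes whose longest transcript had under 40% GC, 343 (18.2%) were higher in UV replicate 1 than in UV replicate 2, whereas of 1486 genes with over 60% GC, 1226 (82.5%) were. The median log2 difference, replicate 2 minus replicate 1, was 0.29 in the first class and -0.31 in the second in the UV pair, and it ran the other way, -0.22 and 0.31, in the untreated pair. Across 11318 genes, which are not independent, GC content correlated with replicate 2 minus replicate 1 at Pearson's r = -0.473 in the UV pair and at 0.715 in the untreated pair. The UV pair of the PIP4K2B knockdown had a similar correlation, r = -0.445, at its smaller SD of 0.131. Its medians ran only from 0.09 in the class under 40% GC to -0.09 in the class over 60%. A GC trend of this direction was thus not particular to the PIP4K2A knockdown, but it was larger there.

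With a smooth GC trend removed from each library, the SD over the 11353 genes of the UV pair was 0.394 in that pair. Over the same genes it was 0.172 in the untreated pair. The 0.241 of the untreated pair before removal was over 11840 genes, so those 2 values do not cover the same genes. The spread per gene was larger among short transcripts: in the UV pair the SD was 1.55 for transcripts under 500 bases, where 31.8% of 107 genes differed by more than 2-fold, and 0.332 for transcripts over 4000 bases. The same classes gave 0.207 and 0.111 in the UV pair of the PIP4K2B knockdown. The mean fragment, read from the difference between deposited length and effective length, was 253.3 and 217 bases in the UV libraries, against 235.2 and 210.9 bases in the untreated ones. Among the genes that the UV libraries disagreed on most were PCLAF, a clamp-associated factor of DNA replication, with 22.2 and 101 CPM with UV, against 71.8 and 66.1 CPM untreated, and DRAP1, a transcriptional corepressor subunit, with 64.7 and 15.2 CPM with UV, against 11.8 and 17 CPM untreated. EIF3CL, which has a near-identical copy, was at 0 and 11.2 CPM with UV, against 10.2 and 15.5 CPM untreated. By these CPM values, both untreated values of PCLAF lay between those of the UV libraries, and 1 of the 2 did for DRAP1 and for EIF3CL.

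**Figure D1:**
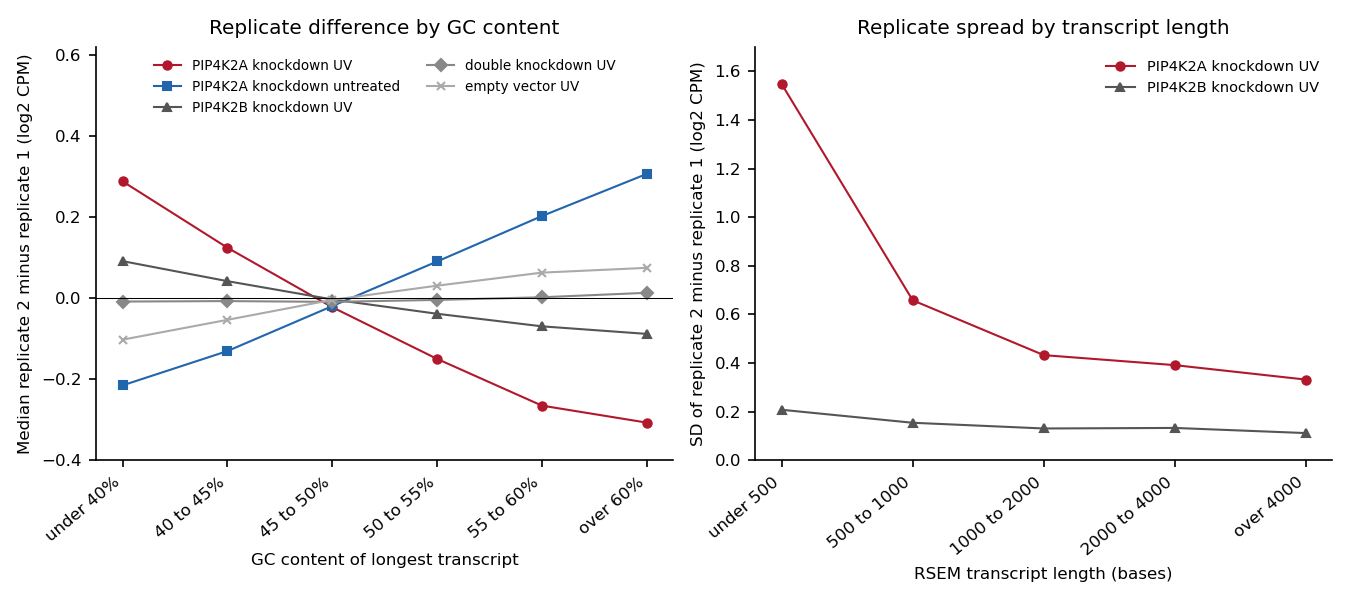
Left, the median of replicate 2 minus replicate 1 (log2 CPM) by GC class for 5 pairs of replicates. Right, the SD of that difference by transcript length for the UV pairs of PIP4K2A and PIP4K2B knockdown cells. The UV pair of the PIP4K2A knockdown runs from 0.29 to -0.31 over the GC classes, and its SD is 1.55 for transcripts under 500 bases.

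Of 22597 genes tested, 6921 (30.6%) changed with UV: 3755 (16.6%) were higher and 3166 (14%) lower at an adjusted p under 0.05 in edgeR. The UV and untreated libraries did not overlap for 3718 of the 3755 higher genes and for all 3166 lower genes, but they also did not overlap for many genes that were not called: in all, 6382 (28.2%) of the genes tested were separated upward and 6565 (29.1%) downward. At least a 2-fold change in each UV library separately, with no overlap, was reached by 252 higher genes (1.12%) and 935 lower genes (4.14%). Large falls were thus counted more often than large rises in both UV libraries. The model shared its estimate of spread over all groups, and the SD of this UV pair, 0.447, was above that of every other pair. The SEs and adjusted p-values given here may therefore be too small for this comparison. Fitted on the 4 libraries alone, which leaves few degrees of freedom, the test called 475 genes higher and 1082 lower. With empty vector untreated replicate 1 kept, it called 21 and 97. Without untreated replicate 1 it called 2338 higher and 2279 lower, and without untreated replicate 2 it called 2444 and 2635. Scaling to ribosomal protein genes put the median of all genes at -0.78 on the log2 scale, against 0.01 otherwise, with 196 higher and 14428 lower genes, so directions below are relative to the bulk of genes.

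Genes with large UV changes in the other knockdowns moved in both UV libraries of PIP4K2A knockdown cells. Of 221 genes at least 2-fold higher with UV in both the PIP4K2B and the double knockdown, 207 were higher in UV replicate 1 and 214 in UV replicate 2, with median log2 changes of 1.24 and 1.12. Of 928 genes at least 2-fold lower in both of those lines, 918 and 920 were lower, with medians of -1.36 and -1.24. The test called 161 of the 221 (72.9%) and 769 of the 928 (82.9%) in PIP4K2A knockdown cells.

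**Figure D2:**
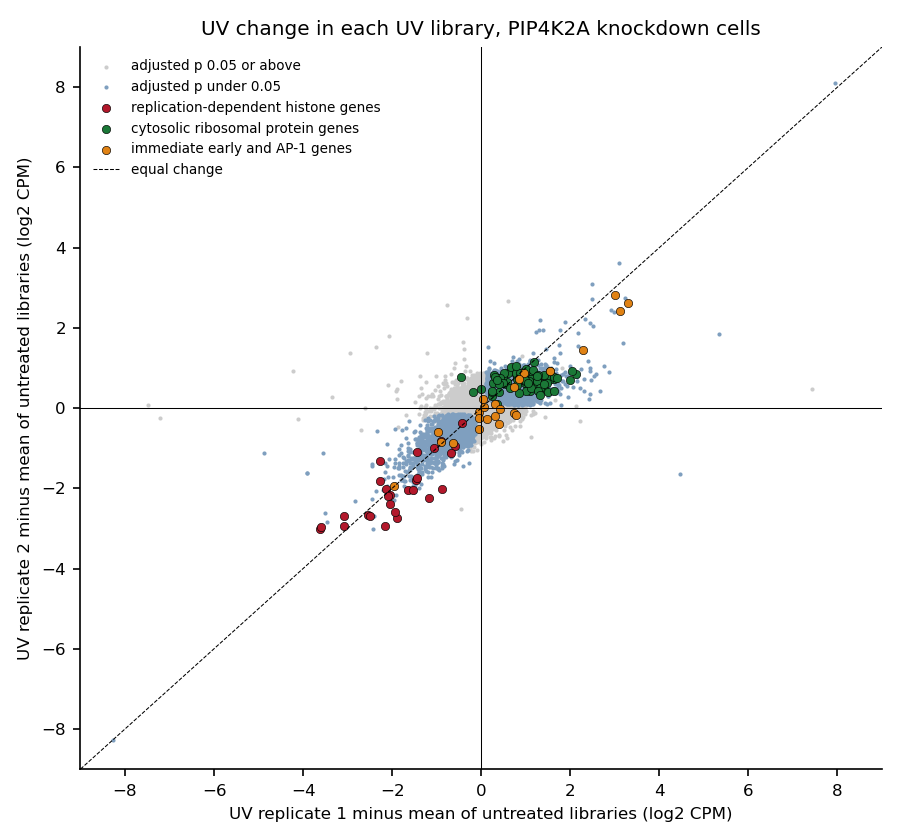
Each point is a gene with a mean of at least 5 CPM in PIP4K2A knockdown cells; the axes give the log2 CPM of each UV library minus the mean of the untreated libraries, and the dashed line marks equal change. Histone genes lie low in both libraries, and ribosomal protein genes lie right of the line more often, with medians of 0.99 in UV replicate 1 and 0.70 in UV replicate 2.

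Among protein-coding genes averaging at least 5 CPM, the 15 largest rises were led by PTGS2, which encodes the inducible cyclooxygenase of prostaglandin synthesis. PTGS2 had 24.5 and 35.3 CPM with UV, against 4.14 and 2.71 CPM untreated, a log2 change of 3.37 (SE 0.19; adjusted p = 4.19e-07, edgeR). ARC, an immediate early gene best known from neurons, had 225 and 142 CPM with UV, against 24.9 and 29.7 CPM untreated, a log2 change of 3.0 (SE 0.18). Both genes were several-fold apart between the groups although their UV libraries differed. The secreted factors among the 15 were IL11, a cytokine of the interleukin 6 family, with 35.0 and 23.4 CPM with UV, against 4.52 and 6.07 CPM untreated, and GDF15, a stress cytokine of the TGF-beta superfamily, with 25.8 and 18.7 CPM with UV, against 3.70 and 4.43 CPM untreated. Their log2 changes were 2.72 (SE 0.20) and 2.71 (SE 0.18).

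SAT1, which starts polyamine breakdown, had 10.8 and 10.1 CPM with UV, against 2.38 and 2.64 CPM untreated, a log2 change of 2.31. TSC22D3, known as a glucocorticoid-induced gene, had 13.3 and 16.1 CPM with UV, against 3.76 and 4.82 CPM untreated, a log2 change of 2.03. SHISA2, of a family known from frogs to hold back Wnt and FGF receptors, had 22.4 and 26.3 CPM with UV, against 4.99 and 4.43 CPM untreated, a log2 change of 2.62. In these 3 genes the UV libraries lay close together. C11orf96, PHLDA2, a pleckstrin homology protein from an imprinted locus, and SNAI1, a repressor of epithelial genes, had log2 changes of 2.86, 2.27 and 1.88. RFPL4AL1 and RFPL4A, near-identical copies whose reads may be shared, had log2 changes of 2.63 and 2.03, and RFPL4AL1 stood at 18.4 CPM in UV replicate 1 but 6.28 CPM in UV replicate 2, against 2.41 and 2.32 CPM untreated.

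These genes were chosen for a call, no overlap and large changes in both UV libraries. Passing in refits of the same libraries was therefore largely set by that choice. All 15 rises and all 15 falls passed when only the 4 libraries were fitted and under scaling to ribosomal protein genes. With 1 of the 4 libraries left out, the log2 changes stayed at 1.41 or above for the rises and at -1.92 or below for the falls. With empty vector untreated replicate 1 kept, 8 of the 15 rises and 3 of the 15 falls passed.

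**Figure D3:**
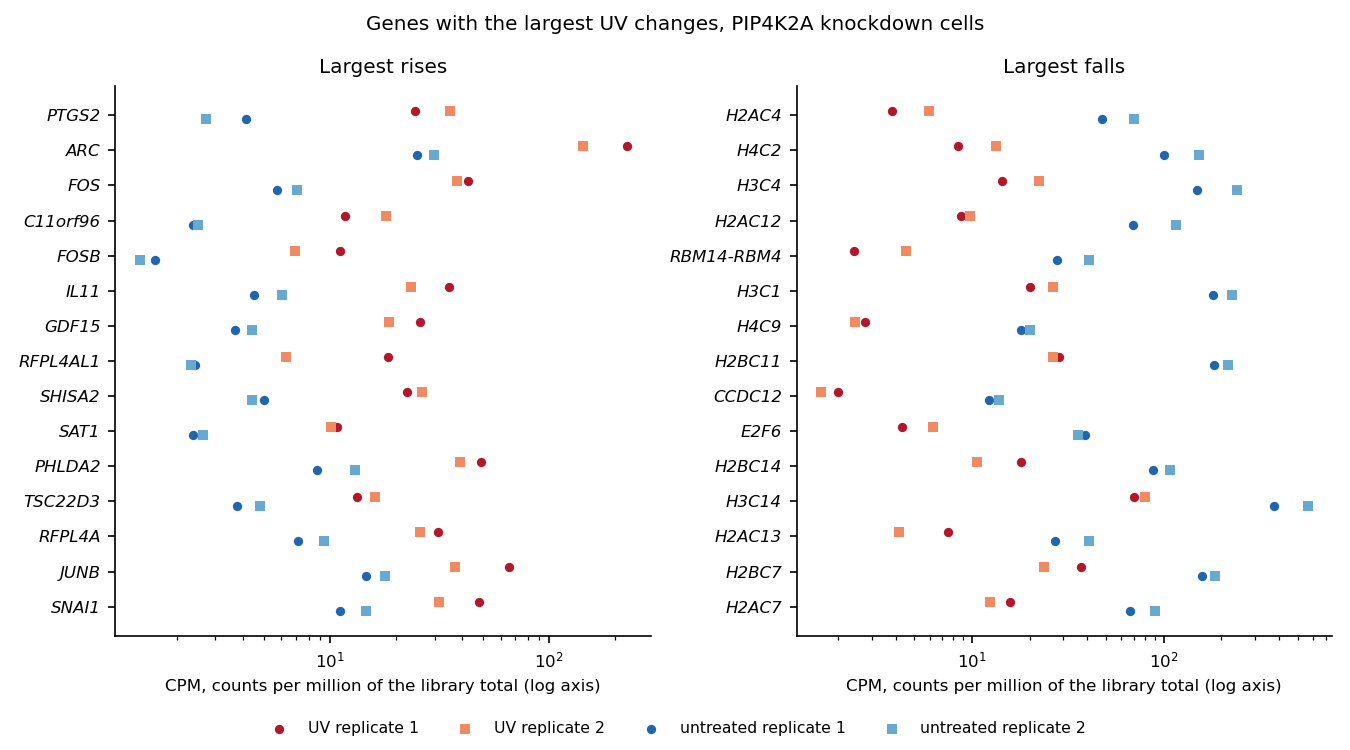
CPM of the 15 protein-coding genes with the largest rises (left) and the 15 with the largest falls (right) among those averaging at least 5 CPM in PIP4K2A knockdown cells, on a log axis, 1 point per library: red and orange for UV, dark and light blue for untreated. No UV point overlaps an untreated point of the same gene, which was a condition of the choice. PTGS2 has 24.5 and 35.3 CPM with UV, against 4.14 and 2.71 CPM untreated.

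AP-1 is a dimer of FOS and JUN family proteins, and its genes are induced within minutes to hours of stress. FOS had 42.8 and 38.1 CPM with UV, against 5.74 and 7.07 CPM untreated, a log2 change of 2.91 (SE 0.15; adjusted p = 1.93e-07, edgeR). FOSB had 11.1 and 6.92 CPM with UV, against 1.60 and 1.36 CPM untreated, a log2 change of 2.85 (SE 0.24). JUNB, a partner of both, had 65.8 and 37.0 CPM with UV, against 14.6 and 17.9 CPM untreated, a log2 change of 1.92 (SE 0.21). The zinc finger gene EGR1 had 130 and 85.6 CPM with UV, against 49.5 and 57.4 CPM untreated, and ATF3, a stress-induced bZIP repressor, had 23.5 and 22.6 CPM with UV, against 14.8 and 14.3 CPM untreated. KLF6 went the other way: it fell to 12.8 and 13.1 CPM with UV, against 62.6 and 57.1 CPM untreated, a log2 change of -1.95 (SE 0.10). Of 30 immediate early and AP-1 genes tested, 10 rose and 4 fell, with a median log2 change of 0.29 against 0.01 over all genes. The shares, 33.3 and 13.3%, stand beside 16.6 and 14% of all genes tested, which are the background for each list below. Without UV replicate 1, 7 fell. The median was 0.38 in UV replicate 1 and 0.05 in UV replicate 2, and -0.53 with ribosomal protein scaling.

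The phosphatases and adaptors that switch MAP kinases off again were mostly lower. Of 14 DUSP and related feedback genes tested, 1 rose and 8 fell, with a median log2 change of -0.60. DUSP10, which acts on the stress kinases JNK and p38, had 8.82 and 9.67 CPM with UV, against 27.4 and 25.1 CPM untreated, a log2 change of -1.25 (SE 0.14; adjusted p = 4.49e-05, edgeR). DUSP16, a JNK phosphatase, had 30.6 and 32.2 CPM with UV, against 71.1 and 70.5 CPM untreated, a log2 change of -0.92. Fitted on the 4 libraries alone, 0 rose and 4 fell, and without untreated replicate 2, 2 rose and 9 fell.

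Feedback genes of the TGF-beta and BMP pathways were lower too, with 5 higher and 14 lower of 25 tested and a median log2 change of -0.36. The rises depended on single libraries: 0 rose and 14 fell without UV replicate 1, 1 rose and 11 fell without untreated replicate 1 or 2, and 0 rose and 6 fell on the 4 libraries alone. SMAD7, which blocks the TGF-beta receptor, had 7.54 and 7.66 CPM with UV, against 31.3 and 32.3 CPM untreated, a log2 change of -1.81 (SE 0.10; adjusted p = 4.19e-07, edgeR). SMAD6, the inhibitor of BMP signalling, and ID3, a BMP target, had log2 changes of -0.92 and -1.26, and NOG, a secreted BMP antagonist, had 17.2 and 23.7 CPM with UV, against 47.8 and 55.6 CPM untreated. Of 24 targets of the YAP, TAZ and TEAD regulators, 1 rose and 7 fell, with 4 higher without UV replicate 2, 0 higher without any other 1 library, and 0 higher and 5 lower on the 4 libraries alone; AMOTL2 and ANKRD1 had log2 changes of -0.92 and -0.76 and NUAK2, a kinase, of -1.55. Of 17 genes of the NOTCH pathway, 1 rose and 5 fell; 3 rose without UV replicate 2 or without untreated replicate 2, and 1 fell on the 4 libraries alone. The ligand gene DLL4 had 2.47 and 2.43 CPM with UV, against 0.125 and 0.107 CPM untreated, and LFNG, the glycosyltransferase that modifies NOTCH receptors, had 26.9 and 33.3 CPM with UV, against 75.8 and 87.8 CPM untreated.

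Among NF-kB targets and inflammatory cytokines, 9 of 24 rose and 4 fell, with a median log2 change of 0.22 that was -0.59 with ribosomal protein scaling. Without untreated replicate 1, 4 rose, and on the 4 libraries alone 4 rose and 2 fell. CXCL8, which encodes the chemokine interleukin 8, had 7.45 and 6.97 CPM with UV, against 0.69 and 0.643 CPM untreated, a log2 change of 3.68 (SE 0.22; adjusted p = 5.67e-07, edgeR). TNF, the tumour necrosis factor gene, had 1.73 and 1.43 CPM with UV, against 0.0314 and 0 CPM untreated. LIF, a cytokine of the interleukin 6 family, and REL, an NF-kB subunit, fell, with log2 changes of -1.30 and -1.13. LIF thus went against IL11 of the same family.

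The replication-dependent histone genes fell as a group. Of 41 listed genes 29 were tested, and of these 0 rose and 28 fell; the median log2 change was -2.03, with -1.94 in UV replicate 1 and -2.05 in UV replicate 2. H4C3, with a log2 change of -0.40 (adjusted p = 0.235, edgeR), was the 1 that did not pass. The same 28 and 0 were counted without UV replicate 1, without UV replicate 2, on the 4 libraries alone and after GC correction. H2AC4 had 3.84 and 5.95 CPM with UV, against 47.4 and 70.1 CPM untreated, a log2 change of -3.33 (SE 0.22; adjusted p = 1.14e-06, edgeR). H4C2 had 8.49 and 13.3 CPM with UV, against 101 and 154 CPM untreated, a log2 change of -3.29 (SE 0.23). H3C1 had 20.1 and 26.6 CPM with UV, against 181 and 229 CPM untreated, a log2 change of -2.88 (SE 0.18). Core histones of all 4 kinds and linker histones took part: H1-1, a linker histone, had 15.2 and 16.6 CPM with UV, against 76.5 and 83.6 CPM untreated, and H1-2 had a log2 change of -0.76. H3C4 and H3C14, which the list did not hold, had log2 changes of -3.17 and -2.40. Such messages mostly lack poly(A) tails, and RNA here was depleted of ribosomal RNA. Whether the RNA counted for these genes had tails was not tested.

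In the other lines the median of the same 29 genes was -2.00 in the PIP4K2B knockdown, -2.24 in the double knockdown and -2.69 in empty vector cells, and the untreated empty vector level rests on 1 library. No histone gene passed the test of a difference between the PIP4K2A knockdown and any of these responses.

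H2B promoters are known for an octamer motif bound by the OCT1 factor. The exact octamer, ATTTGCAT on either strand, lay within 250 bases before to 50 after the RefSeq start (GRCh38.p14) in 5 of 7 tested H2B genes (71.4%) and in 7 of 19 other histone genes with a promoter in the table (36.8%). It lay in 27 of the 381 genes at least 2-fold lower in both UV libraries that had a promoter (7.09%), in 17 of 359 of them outside the histone list (4.74%), and in 1.48% of the promoters of all genes tested. The genes outside the list can still include histone genes that it did not hold, such as H3C4 and H3C14, so 4.74% may not be a share of non-histone genes. Of 27305 promoters in the table, 3 held an octamer that overlapped an AP-1 site, and 0 one that overlapped a cAMP response element, nor did the other two motifs overlap. The promoters of 3 H2B genes among the 15 largest falls are shown because they fell together and share this motif; each line gives the 150 bases before the start, 5′ to 3′ on the gene's strand, with the octamer in capitals.
H2BC11, chr6:27132796-27132945, minus strand: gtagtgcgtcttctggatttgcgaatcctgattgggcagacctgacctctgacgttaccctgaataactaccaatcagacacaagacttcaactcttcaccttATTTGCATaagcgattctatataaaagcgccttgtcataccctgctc
H2BC14, chr6:27814872-27815021, plus strand: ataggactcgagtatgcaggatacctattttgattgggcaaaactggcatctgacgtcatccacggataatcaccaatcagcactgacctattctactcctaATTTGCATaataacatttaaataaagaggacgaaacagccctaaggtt
H2BC7, chr6:26199366-26199515, plus strand: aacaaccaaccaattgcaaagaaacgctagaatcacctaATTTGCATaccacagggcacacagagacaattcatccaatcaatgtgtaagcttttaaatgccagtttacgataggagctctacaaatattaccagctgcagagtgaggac

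The octamer began 47 bases before the start in H2BC11, 48 in H2BC14 and 111 in H2BC7. H2BC11 had 28.4 and 26.6 CPM with UV, against 184 and 216 CPM untreated, a log2 change of -2.61 (SE 0.12; adjusted p = 1.55e-07, edgeR). H2BC14 had 18 and 10.7 CPM with UV, against 88.3 and 107 CPM untreated, and H2BC7 had 37.2 and 23.7 CPM with UV, against 158 and 186 CPM untreated. None of the 3 overlapped between the groups. The cAMP response element TGACGTCA lay in 3 of 107 promoters of genes at least 2-fold higher in both UV libraries (2.8%), against 3.02% of all genes tested, and the AP-1 site TGANTCA in 12 of 107 (11.2%), against 5.39%. Among the 26 promoters of tested histone genes, 5 held the cAMP response element (19.2%) and 0 the AP-1 site. The promoter of H2BC14 printed above is the 1 of the 3 with a cAMP response element, in lower case there, 99 bases before the start. A match of letters shows no binding.

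Outside the histones, E2F6, a repressor of the E2F family, had 4.32 and 6.23 CPM with UV, against 38.8 and 35.6 CPM untreated, a log2 change of -2.56 (SE 0.18; adjusted p = 1.59e-06, edgeR). CCDC12 had 2.00 and 1.63 CPM with UV, against 12.2 and 13.7 CPM untreated, a log2 change of -2.59. RBM14-RBM4 is a readthrough gene that shares its exons with both neighbours, so counts may be split between them. Its log2 change was -3.04 (SE 0.43) with UV in PIP4K2A knockdown cells. The change was negative as well in empty vector cells, at -1.87, and in double knockdown cells, at -1.68. PIP4K2B knockdown cells stood apart, at 0.04. The PIP4K2A minus PIP4K2B difference of responses, -3.08 (SE 0.57), did not pass the test (adjusted p = 0.422, edgeR).

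Genes of the cell cycle and of DNA replication did not fall with the histones as whole lists. Of 38 G1/S and replication genes, 16 rose and 5 fell, with a median of 0.18, and of 34 genes of G2 and mitosis, 11 rose and 4 fell, with a median of 0.17; both medians were below 0 with ribosomal protein scaling, at -0.62 and -0.64, and both lists had 0 genes higher when the 4 libraries were fitted alone. Without untreated replicate 1, 10 of the 38 rose and 3 fell, and without untreated replicate 2, 5 of the 34. The members that fell furthest were regulators. CDC25A, the phosphatase that starts S phase and is a checkpoint target, had 9.96 and 13.1 CPM with UV, against 42.8 and 42.6 CPM untreated, a log2 change of -1.63 (SE 0.13; adjusted p = 4.35e-06, edgeR). WEE1, the kinase that opposes CDC25, had 22.4 and 31.5 CPM with UV, against 95.1 and 83.2 CPM untreated, a log2 change of -1.47. The S phase activator E2F2 and the mitotic kinases AURKA and TTK had log2 changes of -0.75, -0.68 and -0.88.

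Nucleotide excision repair removes UV lesions. Of 35 of its genes tested, 11 rose and 3 fell, with a median log2 change of 0.24 that was -0.57 with ribosomal protein scaling. RPA3, the small subunit of the single-strand binding complex, had 42.1 and 43.5 CPM with UV, against 29.9 and 28.5 CPM untreated, a log2 change of 0.81 (SE 0.11; adjusted p = 0.000276, edgeR). XAB2, which binds XPA, and ERCC1, a subunit of the nuclease that cuts 5′ of the lesion, had log2 changes of 0.80 and 0.68; both were below 0 with ribosomal protein scaling, at -0.025 and -0.14. XAB2 had 62.2 and 36.3 CPM with UV, against 31.6 and 35.8 CPM untreated, so its rise was mostly that of UV replicate 1. On the 4 libraries alone 1 of the 35 genes rose and 0 fell, and 19 rose without UV replicate 2 but 6 rose and 1 fell without untreated replicate 1. Of 26 genes of translesion synthesis and replication stress, 5 rose (19.2%) and 4 fell (15.4%), near the shares over all genes, with 3 higher without UV replicate 2, 2 without untreated replicate 2 and 0 on the 4 libraries alone; ETAA1, an activator of the ATR kinase, and REV1, a translesion polymerase, fell, with log2 changes of -1.04 and -0.68.

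Targets of p53 moved in both directions: 12 of 33 rose and 8 fell, with a median of 0.17 that was -0.64 with ribosomal protein scaling. Without untreated replicate 2, 7 rose, and on the 4 libraries alone 4 rose and 5 fell. PMAIP1, which encodes the BH3-only killer NOXA, had 67.8 and 125 CPM with UV, against 35.5 and 29.4 CPM untreated, a log2 change of 1.82 (SE 0.21; adjusted p = 7.43e-05, edgeR). PLK3, a polo-like kinase, had 53.9 and 36.0 CPM with UV, against 18.2 and 21.4 CPM untreated, a log2 change of 1.43. The sestrin genes SESN1 and SESN2, which restrain mTORC1, fell, with log2 changes of -1.43 and -1.27, as did TP53INP1, an autophagy regulator, with -1.15. Among 26 genes of the BCL2 family and apoptosis, 3 rose and 7 fell; 5 rose without untreated replicate 2, and 1 rose and 3 fell on the 4 libraries alone. BCL2L11, which encodes the killer BIM, had 10.0 and 12.1 CPM with UV, against 49.8 and 45.3 CPM untreated, a log2 change of -1.85 (SE 0.11; adjusted p = 6.31e-07, edgeR). BMF, another BH3-only gene, had 0.984 and 0.827 CPM with UV, against 6.99 and 5.86 CPM untreated, and MCL1, a survival factor with a short-lived message, had 68.3 and 71.2 CPM with UV, against 156 and 148 CPM untreated. BH3-only genes thus moved in opposite directions, PMAIP1 up and BCL2L11 and BMF down.

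In the ATF4 and unfolded protein response list 13 of 25 genes rose and 4 fell, with a median log2 change of 0.32 that was -0.50 with ribosomal protein scaling. ATF4, the transcription factor of the integrated stress response, had 587 and 543 CPM with UV, against 343 and 312 CPM untreated, a log2 change of 1.04 (SE 0.08; adjusted p = 2.97e-06, edgeR). DDIT3, which encodes CHOP, had 7.09 and 6.67 CPM with UV, against 2.60 and 2.89 CPM untreated, a log2 change of 1.58 (SE 0.15). CHAC1, a glutathione-degrading ATF4 target, had 21.0 and 33.6 CPM with UV, against 8.94 and 12.9 CPM untreated, with a log2 change of 1.58, and XBP1 and PPP1R15A had log2 changes of 0.99 and 1.07. HERPUD1, a factor of endoplasmic reticulum degradation, went down with a log2 change of -1.08. On the 4 libraries alone 5 genes rose and 3 fell, and without UV replicate 2, 7 fell. Of 16 heat shock chaperone genes 8 rose and 5 fell; HSP90AA1 had a log2 change of 0.69 that was -0.13 with ribosomal protein scaling, and HSF2 one of -0.84. Leaving out UV replicate 1, untreated replicate 1 or untreated replicate 2 left 4 chaperone genes higher, leaving out UV replicate 2 or either untreated replicate left 3 lower, and the 4 libraries alone gave 0 higher and 1 lower.

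Genes around the phosphoinositide kinases, to which PIP4K2A belongs, showed no common direction: 9 of 52 rose (17.3%) and 12 fell (23.1%), PIP4K2A itself among the 12, beside 16.6 and 14% of all genes, with a median of 0.05. Without untreated replicate 1, 4 of them rose and 8 fell, without untreated replicate 2, 5 rose, and on the 4 libraries alone 0 rose and 2 fell. PIK3R1, the regulatory subunit of phosphoinositide 3-kinase, had 12.2 and 15 CPM with UV, against 49.5 and 40.6 CPM untreated, a log2 change of -1.47 (SE 0.12; adjusted p = 5.29e-06, edgeR). Downstream, 4 of 23 FOXO targets and insulin signalling genes rose and 9 fell, with a median of -0.24; 2 rose without untreated replicate 1, and 1 rose and 2 fell on the 4 libraries alone. FOXO1 had 2.83 and 4.66 CPM with UV, against 10.6 and 8.64 CPM untreated, and GADD45A, a stress-induced growth arrest gene, had 48.0 and 52.3 CPM with UV, against 31.4 and 28.4 CPM untreated. In sterol metabolism, 6 of 29 genes rose and 8 fell, with 10 and 10 without UV replicate 2 and 0 and 3 on the 4 libraries alone. INSIG1, an endoplasmic reticulum protein that holds back sterol synthesis, had a log2 change of -1.08.

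Short and abundant messages of the translation, respiration and proteasome machinery were higher relative to the bulk of genes. Of 78 cytosolic ribosomal protein genes 70 rose and 0 fell, with a median log2 change of 0.85; it was 0.99 in UV replicate 1 and 0.70 in UV replicate 2. The same list gave 39 higher and 0 lower on the 4 libraries alone, and its median is 0.04 by construction when libraries are scaled to it. RPS12 had 370 and 173 CPM with UV, against 103 and 113 CPM untreated, a log2 change of 1.58 (SE 0.25; adjusted p = 0.000571, edgeR), and RPL11 had 460 and 190 CPM with UV, against 128 and 151 CPM untreated, a log2 change of 1.48. In both genes UV replicate 1 lay far above UV replicate 2. RPL41, one of the shortest, had a log2 change of 0.27 that did not pass (adjusted p = 0.518, edgeR) and stood at -0.46 in UV replicate 1 and 0.77 in UV replicate 2.

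Of 76 nuclear-encoded genes of oxidative phosphorylation 55 rose and 0 fell, with a median of 0.64 that was -0.14 with ribosomal protein scaling; 31 rose without untreated replicate 1, and 17 on the 4 libraries alone, and 1 fell without UV replicate 2. NDUFS5, a complex I subunit, had 50.6 and 15 CPM with UV, against 9.94 and 12.1 CPM untreated, a log2 change of 1.83 (SE 0.39; adjusted p = 0.00399, edgeR), which was carried mostly by UV replicate 1. Of 31 proteasome genes 26 rose and 0 fell, with a median of 0.61 that was -0.20 with ribosomal protein scaling, and 11 rose on the 4 libraries alone. PSMA6, a core subunit, had 107 and 74.0 CPM with UV, against 57.2 and 50.5 CPM untreated, a log2 change of 1.00 (SE 0.15). Mitochondrial ribosomal protein genes counted 27 higher and 0 lower of 52, with a median of 0.37 that was -0.44 with ribosomal protein scaling, 17 higher without untreated replicate 2, 4 higher on the 4 libraries alone, and 2 lower without UV replicate 1 or 2. MRPS15 had 92.8 and 67.8 CPM with UV, against 51.7 and 43.6 CPM untreated, a log2 change of 1.01. Of the 13 messages of the mitochondrial genome 3 were higher and 3 lower, a count that changed with the library left out: it was 2 and 4 without UV replicate 1, 5 and 2 without UV replicate 2, 2 and 1 without untreated replicate 1, 1 and 2 without untreated replicate 2, and 0 and 0 on the 4 libraries alone; MT-ND1 and MT-CYB had log2 changes of 0.92 and -0.61.

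Among protein-coding genes the median log2 change ran with transcript length: 0.53 for transcripts under 500 bases, 0.46 from 500 to 1000, 0.20 from 1000 to 2000, 0.03 from 2000 to 4000 and -0.04 over 4000. Both UV libraries showed this order, from 0.49 to -0.08 in UV replicate 1 and from 0.57 to -0.04 in UV replicate 2. The share of genes called higher was 47.7% in the shortest class and 9.56% in the longest, and the share called lower 15.9% and 20.7%. The same classes ended at 0.87 and -0.15 in the PIP4K2B knockdown and at 0.54 and -0.06 in empty vector cells. Over all gene types the shortest class had a median of 0, at -0.37 in UV replicate 1 and 0.20 in UV replicate 2. By gene span, the medians of protein-coding genes were 0.23 under 10 kb and 0.12 from 10 to 30 kb. They were 0.04 from 30 to 100 kb, 0.04 from 100 to 300 kb and 0.05 over 300 kb. Of the genes spanning over 300 kb, 14.5% were called higher and 12.3% lower.

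**Figure D4:**
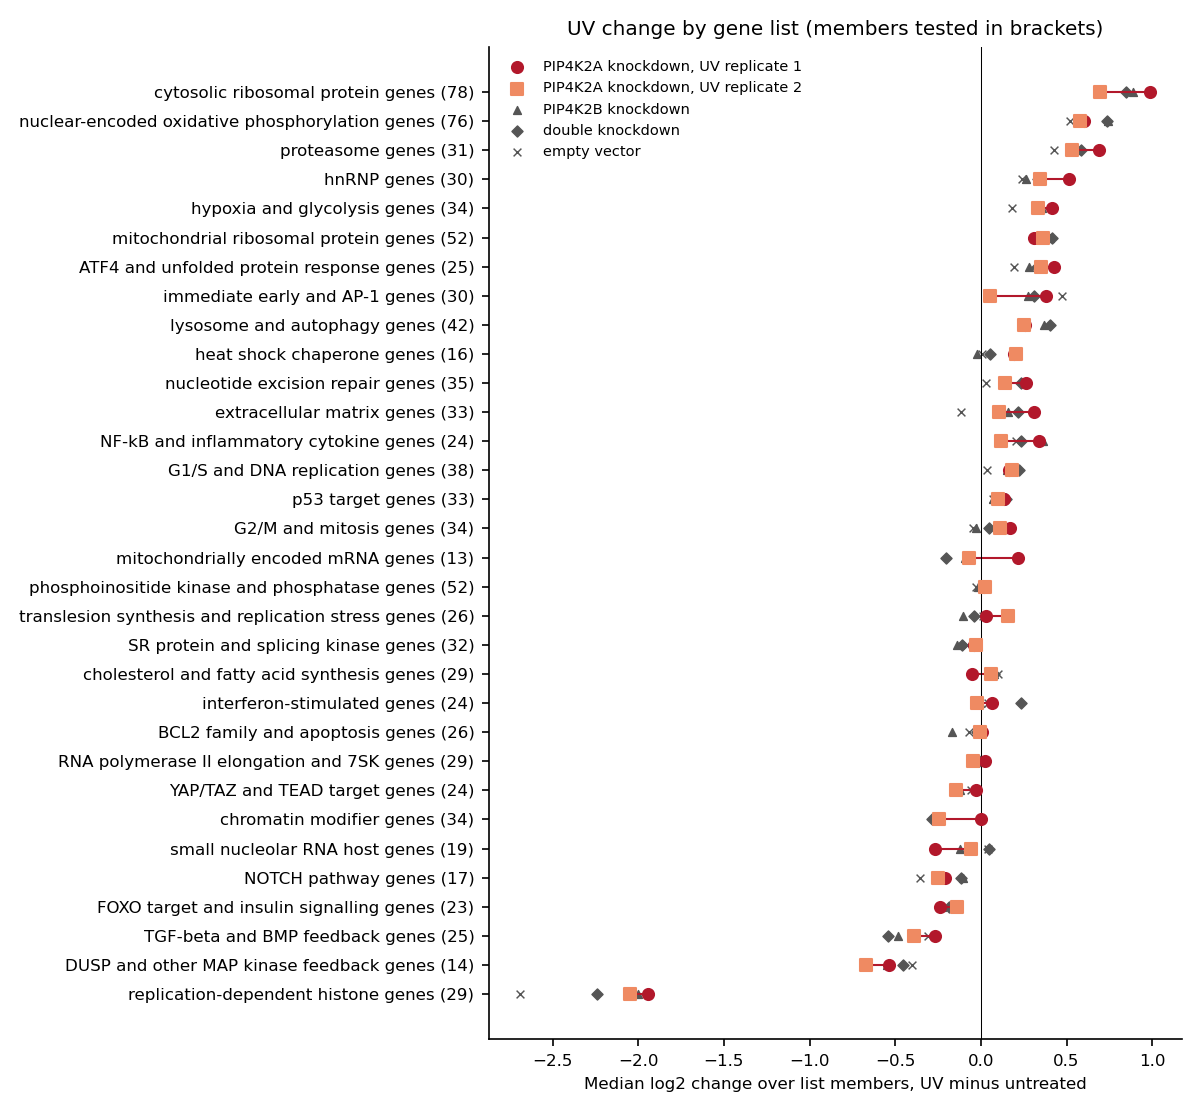
Median log2 change, UV minus untreated, over the tested members of each gene list: filled red circles and orange squares give UV replicates 1 and 2 of the PIP4K2A knockdown, and grey marks give the other lines. Histone genes lie at -1.94 and -2.05, and ribosomal protein genes at 0.99 and 0.70.

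Genes of hnRNP proteins were mostly higher, whereas the median log2 change of SR protein and splicing kinase genes was 0.02, near the 0.01 over all genes. Of 30 hnRNP genes 22 rose and 0 fell, with a median of 0.45 that was -0.36 with ribosomal protein scaling. On the 4 libraries alone 1 rose, 14 and 12 rose without untreated replicates 1 and 2, and 1 fell without UV replicate 2. HNRNPD, an AU-rich element binding protein, had 404 and 249 CPM with UV, against 229 and 194 CPM untreated, a log2 change of 0.88 (SE 0.18; adjusted p = 0.00309, edgeR). HNRNPA2B1 had a log2 change of 0.78, which was -0.05 with ribosomal protein scaling. Of 32 SR protein and splicing kinase genes 5 rose and 10 fell; 3 rose without untreated replicate 1, 0 without untreated replicate 2, and 0 rose and 5 fell on the 4 libraries alone. RBM5, a splicing regulator of apoptosis genes, had 20.5 and 19.8 CPM with UV, against 66.8 and 63.5 CPM untreated, a log2 change of -1.44 (SE 0.09; adjusted p = 6.31e-07, edgeR). The kinase genes CLK4 and DYRK1A, whose products phosphorylate SR proteins, had log2 changes of -1.34 and -0.71, and ARGLU1, a splicing coactivator, one of -0.89.

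Of 29 genes of RNA polymerase II elongation and the 7SK complex 6 rose (20.7%) and 4 fell (13.8%), near the shares over all genes, with 7 lower without UV replicate 1, 10 higher without UV replicate 2, 2 lower without untreated replicate 1, and 1 and 1 on the 4 libraries alone. ELL, an elongation factor, had 5.90 and 4.99 CPM with UV, against 15.6 and 18.8 CPM untreated, a log2 change of -1.41 (SE 0.14; adjusted p = 2.79e-05, edgeR). Chromatin modifier genes counted 2 higher and 10 lower of 34. Their median was 0.00 in UV replicate 1 and -0.25 in UV replicate 2, and 1 was higher and 17 lower without UV replicate 1, against 8 and 7 without UV replicate 2; without untreated replicates 1 and 2, 0 and 1 were higher, and on the 4 libraries alone 0 were higher and 0 lower. ARID1A, a subunit of the SWI/SNF remodeller, had 188 and 141 CPM with UV, against 287 and 314 CPM untreated, and SETD1A and SETD1B, histone H3 lysine 4 methyltransferases, had log2 changes of -0.73 and -0.68. The fall of all 3 was larger in UV replicate 2.

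The remaining lists were smaller or mixed. Hypoxia and glycolysis genes counted 17 higher and 4 lower of 34, with a median of 0.41 that was -0.40 with ribosomal protein scaling; TPI1 and PKM, enzymes of glycolysis, had log2 changes of 0.73 each that were -0.07 and -0.10 with that scaling. Without untreated replicate 1, 11 of the list rose, and on the 4 libraries alone 1 rose and 1 fell. SLC2A1, the glucose transporter, fell by 0.86 on the log2 scale. Lysosome and autophagy genes counted 17 higher and 5 lower of 42, with a median of 0.27 that was -0.52 with that scaling, with 10 higher without untreated replicate 1, 8 lower without UV replicate 2, and 1 and 1 on the 4 libraries alone. Extracellular matrix genes counted 11 and 0 of 33, with a median of 0.22 that was -0.59 with that scaling; 5 rose without UV replicate 1, 19 without UV replicate 2, 3 and 4 without untreated replicates 1 and 2, and 0 on the 4 libraries alone, while 2 fell without UV replicate 1 or 2 and 1 without untreated replicate 1. The counts were 3 higher and 1 lower of 24 interferon-stimulated genes, with 1 higher without untreated replicate 2 and 0 on the 4 libraries alone. They were 4 and 5 of 19 host genes of small nucleolar RNAs, with 8 lower without UV replicate 2, 2 higher and 3 lower without untreated replicate 1, and 0 and 0 on the 4 libraries alone. IFIT1, an interferon-induced antiviral gene, had a log2 change of -1.18, and TIMP1, a metalloproteinase inhibitor, one of 0.73 that was -0.08 with ribosomal protein scaling. Non-coding classes had lower medians: the median log2 change was -0.73 for 396 genes of the GENCODE class TEC, -0.58 for 278 sense intronic genes and -0.34 for 1894 antisense genes, against 0.09 for 15314 protein-coding genes. The strand setting of the counting is not given in the sources used here, so antisense and intronic counts may include reads of their host genes.

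Markers of other cell types were checked. Of 8 osteoblast and osteosarcoma lineage markers tested 3 rose and 3 fell, and their summed level was 3292 and 2780 CPM with UV, against 2989 and 3364 CPM untreated. Blood cell markers summed to 8.91 and 7.74 CPM with UV, against 6.81 and 7.21 CPM untreated, over 9 genes of which 2 were at 0 in all 4 libraries. Of 7 endothelial markers 0 rose and 0 fell, and of 8 fibroblast and smooth muscle markers 2 rose and 2 fell. Epithelial markers summed to 945.9 and 564.2 CPM with UV, against 438.7 and 502.5 CPM untreated, with 4 higher and 1 lower of 9. Leaving out untreated replicates 1 and 2 in turn left 1 and 0 lineage markers higher, and leaving out untreated replicate 1 left 2 epithelial markers higher. Their part in the other results was not tested.

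The UV response was set against that of each other line by testing the difference of the responses. It differed from the empty vector response for 2 genes (0.00885% of those tested), from the PIP4K2B knockdown response for 0 genes, and from the double knockdown response for 3 genes (0.0133%), at an adjusted p under 0.05 in edgeR. At an unadjusted p under 0.05 the counts were 1109, 2088 and 1641. With no difference at all, a share of 0.05 of the 22597 genes tested would be counted. The 1109 of the empty vector comparison is below that share. The 2088 of the PIP4K2B knockdown and the 1641 of the double knockdown comparison are above it. DESeq2 called 7 higher and 16 lower, 5 and 11, and 14 and 4. Counts were simulated at this depth with the spread shared over the 15 libraries, not the larger spread of the PIP4K2A knockdown UV pair. In them a 2-fold difference of responses was recovered for 58.2, 74.6 and 74.6% of changed genes, and a 1.5-fold one for 2.99, 5.97 and 7.46%. Recovery in the real libraries may be lower, and smaller differences were mostly not detectable.

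The stress regulator DDIT4, an inhibitor of mTORC1, had 37.0 and 33.9 CPM with UV in PIP4K2A knockdown cells, against 24.7 and 29.9 CPM untreated, a log2 change of 0.63 (SE 0.11) that was -0.17 with ribosomal protein scaling. In empty vector cells it had 41.9 and 43.5 CPM with UV, against 91.0 CPM in the untreated library used. The difference of responses was 1.47 (SE 0.17; adjusted p = 0.0151, edgeR), and it was 0.87 (adjusted p = 0.627) with the empty vector library of 48.5 CPM kept. The response in the other knockdowns was 0.44 and 0.42, near that of the PIP4K2A knockdown. The call therefore rests on 1 untreated empty vector library. RIMBP3C, the other gene, had 0.298 and 0.248 CPM with UV, against 1.00 and 0.857 CPM untreated, in PIP4K2A knockdown cells, and stood at 0.527 and 0.726 CPM with UV, against 0 CPM in that same untreated library, in empty vector cells.

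Against the double knockdown, 3 genes had a less negative UV change in PIP4K2A knockdown cells. SOX9, a transcription factor of cartilage and progenitor cells, had 148 and 139 CPM with UV, against 198 and 193 CPM untreated, in PIP4K2A knockdown cells, and 49.3 and 52.3 CPM with UV, against 178 and 190 CPM untreated, in the double knockdown. The difference of responses was 1.33 (SE 0.12; adjusted p = 0.00168, edgeR), and the log2 change was -0.19 in the PIP4K2A knockdown, -1.53 in the double knockdown, -0.66 in the PIP4K2B knockdown and -0.30 in empty vector cells. ELL2, an elongation factor, had 69.0 and 66.7 CPM with UV, against 121 and 106 CPM untreated, in PIP4K2A knockdown cells, and 22.4 and 23.4 CPM with UV, against 86.3 and 78.1 CPM untreated, in the double knockdown, a difference of 1.03 (SE 0.13; adjusted p = 0.0179, edgeR). STX3, a syntaxin of membrane fusion, had 37.5 and 39.2 CPM with UV, against 94.0 and 89.0 CPM untreated, in PIP4K2A knockdown cells, and 14.3 and 15.3 CPM with UV, against 72.4 and 69.7 CPM untreated, in the double knockdown, a difference of 0.93 (SE 0.11; adjusted p = 0.0179, edgeR). In all 3 genes the UV libraries of each line lay close together. Without untreated replicate 1 the adjusted p of ELL2 and STX3 was 0.0533 and 0.0584, and without untreated replicate 2 it was 0.186 for both. Fitted on only the groups compared, none of the 3 passed, with an adjusted p of 0.0537 for SOX9, 0.216 for ELL2 and 0.256 for STX3, and with empty vector untreated replicate 1 kept it was 1.0 for each. With ribosomal protein scaling it was 0.0193 for SOX9 and 0.427 for ELL2 and STX3.

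How many genes differed depended on which UV library was kept. Without UV replicate 2, so that UV replicate 1 stood alone, 1037 genes were higher and 829 lower relative to the empty vector response, 474 and 442 relative to the PIP4K2B knockdown, and 772 and 751 relative to the double knockdown. Without UV replicate 1 the counts were 4 and 8, 0 and 2, and 4 and 1. In each case the lone library was taken to have the spread seen in the other groups. After GC correction the contrast between the UV libraries was still present, with 1517 and 1551 genes relative to the empty vector response without UV replicate 2, against 9 and 27 without UV replicate 1.

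**Figure D5:**
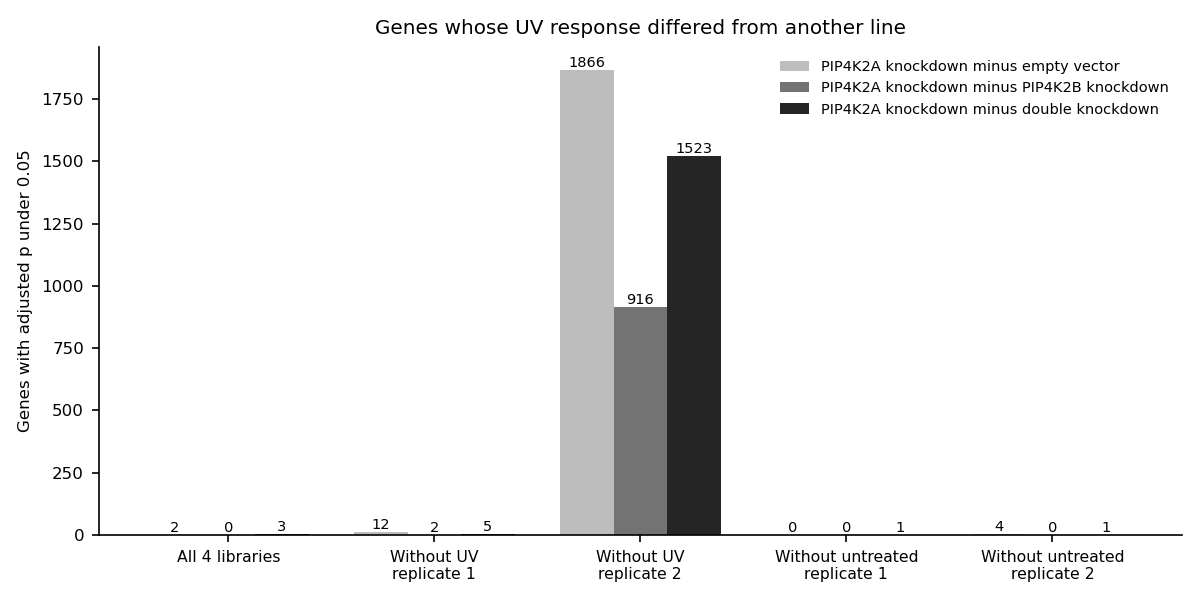
Number of genes (bars, from 0) whose UV response in PIP4K2A knockdown cells differed from that of each other line at an adjusted p under 0.05, with all 4 libraries and without each in turn. The counts are 2, 0 and 3 with all 4, and 1866, 916 and 1523 when UV replicate 1 is the only UV library.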

How the data were processed

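The deposited tables hold 1 library each with RSEM expected counts per gene, which are not normalized, per the file headers. They also give, as other columns by the authors, a transcript length and an effective length per gene, whose difference was read as the mean fragment. STAR, SAMtools, RSEM and GRCh38 are listed in the submitters' processing notes. Neither the annotation release nor strand handling is given in the sources used here. Of 60666 genes 60437 had a symbol in the name table, and positions and types came from GENCODE release 29, which held 58420. Expected counts were rounded to whole numbers and fitted in edgeR 4.0.16 (R 4.3.3) with 1 term per group over 15 libraries, without empty vector untreated replicate 1. The filter was filterByExpr with 10 counts as its minimum, scaling was by TMM, and the quasi-likelihood test was called at a Benjamini-Hochberg adjusted p under 0.05. The SE of a log2 change was its size over the square root of F. Changes in each UV library are log2 CPM (TMM scaled, prior count 2) minus the mean of the untreated libraries. With 2 against 2 libraries an exact two-sided permutation test cannot go below p = 0.333, so single genes were tested in the model alone.

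The members and lists were chosen with earlier results of these data known. Named genes are the 15 largest rises and 15 largest falls among protein-coding genes called by the test, averaging 5 CPM or more, with no overlap and both UV libraries at least 1 log2 from the untreated mean, up to 4 members past the test of each of 37 lists, the genes called in a difference of responses, and genes on which the UV libraries differed most. EGR1, ATF3, KLF6, ATF4, XBP1, PPP1R15A, TP53INP1, LIF, REL, RIMBP3C, H4C3, H1-1, H1-2 and RPL41 were chosen after their values were seen. Alternatives were all 16 libraries, the compared groups alone, RLE size factors, scaling to the summed counts of ribosomal protein genes, no filter, CPM above 1 in 2 libraries, a replicate block, DESeq2 1.42.0, and leaving out each of the 4 libraries. GC correction, a smooth curve with 5 degrees of freedom per library in the offsets, was added after seeing the data. The biological coefficient of variation was 11.3%. In counts simulated for the UV response over 22597 genes, changes of 1.5, 2 and 4 fold were recovered for 32.8, 95.5 and 100% of changed genes, with 11 false calls among unchanged genes. These counts had the spread shared over 15 libraries, so the rates may be too favourable for the PIP4K2A knockdown UV pair. Some genes that the rule names are not reported here. Promoters came from RefSeq (GRCh38.p14). Tables and plots used Python 3.11.15, pandas 2.3.3 and matplotlib 3.10.9.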

Additional observations from a re-analysis of the deposited data

Results flagged for a closer look

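The UV response of PIP4K2A knockdown cells differed from that of another line, by the test of the difference itself, for 5 genes. Against empty vector cells the difference of log2 changes was 1.47 for DDIT4 and -8.95 for RIMBP3C. The second value is set by an untreated empty vector library at 0 CPM and depends on the prior count, so it is no measure of size, and both rest on that 1 library. Against the double knockdown the difference was 1.03 for ELL2, 1.33 for SOX9 and 0.93 for STX3.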

How the results depend on the processing

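RLE size factors, DESeq2, no filter, a CPM filter and GC correction called between 3434 and 4115 genes higher and between 2550 and 4267 lower. All 16 libraries called 21 and 97, the 4 libraries alone 475 and 1082, and ribosomal protein scaling 196 and 14428. Leaving out 1 of the 4 libraries gave 2338 to 4556 genes higher and 2279 to 3940 lower. The differences from empty vector, PIP4K2B knockdown and double knockdown were, higher and lower, 0 and 0, 0 and 0, and 0 and 0 with all 16 libraries and with only the groups compared; 2 and 1, 0 and 0, and 1 and 0 with ribosomal protein scaling; 130 and 101, 155 and 212, and 120 and 123 with no filter; 1 and 0, 0 and 0, and 3 and 0 with the CPM filter; 7 and 16, 5 and 11, and 14 and 4 with DESeq2; and 2 and 9, 0 and 0, and 4 and 0 with GC correction. Leaving out 1 library gave 0 to 1037 higher and 0 to 829 lower against empty vector, 0 to 474 and 0 to 442 against the PIP4K2B knockdown, and 1 to 772 and 0 to 751 against the double knockdown, with the highest counts without UV replicate 2. With GC correction as well, leaving out UV replicate 1 gave 9 and 27, 0 and 7, and 14 and 3, and leaving out UV replicate 2 gave 1517 and 1551, 1367 and 1287, and 1729 and 1680, with 4493 higher and 5101 lower for the UV response. The cause was not tested.

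A threshold of 1.5-fold in both UV libraries counted 899 genes higher and 1842 lower, and 4-fold 49 and 111. The SD between the UV libraries was 0.537 at a minimum of 1 CPM and 0.397 at 20 CPM. With protein-coding genes only, the length classes gave 0.53, 0.46 and 0.20 up to 2000 bases, and genes spanning under 10 kb 0.23. Ribosomal protein scaling reversed the log2 change of ERCC1 (-0.14), PKM (-0.10), XAB2 (-0.025), HSP90AA1 (-0.13), TIMP1 (-0.080), TPI1 (-0.071), HNRNPA2B1 (-0.051), PIP4K2C (-0.56), DDIT4 (-0.17) and RPL41 (-0.48). Leaving out 1 library moved RPL41 between -0.47 (without UV replicate 2) and 0.72, and GC correction without UV replicate 2 put it at -0.54, where PIP4K2C stood at -0.034.

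Replicate numbers are not said to mark a shared culture, and deviations of UV and untreated replicates of the PIP4K2A knockdown correlated at -0.405 across genes, whereas those of UV replicates of the PIP4K2A and PIP4K2B knockdowns correlated at 0.317; not every such correlation was above 0, so nothing was paired. With the replicate number as a block, 3580 genes were higher and 3020 lower, 6484 of them shared with the 6921, and the differences stood at 1 and 1, 0 and 0, and 3 and 0. Depth limits genes near 0 CPM, such as TNF and RIMBP3C.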
